A study of Solanum lycopersicum with 4 samples.

Results

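The 9 tomato genes described here act after lycopene in carotenoid metabolism: the lycopene cyclases LCYE, LCYB and CYCB, the carotene hydroxylases BCH1 and BCH2, the xanthophyll cycle enzymes ZEP and VDE, and the carotenoid cleavage dioxygenases CCD1A and CCD1B. They were chosen by their Solyc gene IDs, version suffix ignored, and all 9 were found among the 34675 genes listed. RNA sequencing was done on fruit of the variety Ailsa Craig, without treatment. The transgenic group carries the citrus gene CsMYBF1 and holds 2 libraries, 1 of line D7 (replicate 1) and 1 of line C2 (replicate 2). The wild-type group holds 2 libraries without the transgene. Neither the promoter of the transgene nor the ripening stage, the plant age or any pooling of plants is stated in the sources used here. The labels do not say whether the wild-type libraries are of separate plants, so their spread may be technical, whereas the transgenic libraries are of different lines. The p-values here therefore reflect the spread of these 4 libraries alone, and those of limma also draw on the spread of the other genes tested. The table holds tomato gene IDs, so CsMYBF1 itself was not analysed here, and the tissue was not checked against marker genes because the IDs are not paired with names. In bulk fruit RNA, fewer cells of a type and less RNA per cell cannot be told apart.

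Lycopene, the red pigment of ripe tomato, is a linear carotenoid that cyclases close into rings at its ends. Beta-cyclases make beta rings and lead to beta-carotene, whereas the epsilon-cyclase adds the epsilon ring of the lutein branch. Hydroxylases turn beta-carotene into zeaxanthin, zeaxanthin epoxidase (ZEP) turns zeaxanthin into violaxanthin, and violaxanthin de-epoxidase (VDE) runs that step backwards in strong light. CCD1 enzymes cleave carotenoids and their breakdown products into apocarotenoid volatiles such as beta-ionone, part of the aroma of ripe fruit. CsMYBF1 encodes a MYB transcription factor of the class known for control of phenylpropanoid and flavonoid genes, a separate branch of metabolism.

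The values are RPKM, read numbers scaled to a kilobase of gene and to 1000000 reads of the library total. Levels of different genes are set side by side per length here, but differences between the groups still moved with gene length. Over all genes tested, the median log2 fold change (transgenic minus wild type) was 0.32 around 1292 bases and 1.23 around 2397 bases. Levels and shares of genes of unlike length therefore depend on the library. Whole reads and gene lengths were recovered from the steps in these values, and the library totals so recovered were 12916160 to 21403774 reads. Reads of the listed genes made up 97.9% to 98.09% of these totals, which need not be all reads sequenced. CCD1B had the highest level of the 9 genes in every library, with a mean of 142 RPKM over the 4 libraries. BCH1 and BCH2 followed at means of 59.9 and 51.3 RPKM, with ranges that overlapped each other and lay below every value of CCD1B. ZEP (12 RPKM), CCD1A (7.7 RPKM), LCYB (7.67 RPKM), CYCB (5.84 RPKM) and VDE (4.27 RPKM) formed a low group in which each neighbour's range overlapped the next. The order within it varied between libraries: LCYB held rank 4 of the 9 genes in both wild-type libraries, rank 5 in line D7 and rank 8 in line C2, and CCD1A lay above LCYB in 1 of 4 libraries. LCYE was last, with 0.0329 RPKM. CCD1B, BCH1 and BCH2 together took 85.4% of the summed RPKM of the 9 genes in line D7 and 84.7% in line C2, against 89.4% and 89.9% in wild-type fruit. These shares were not corrected for gene length. BCH1 and BCH2 (1311 and 1297 bases) are the shortest of the 9 genes, whereas CCD1B (2285 bases) is longer than all but ZEP. The sum itself was 343 RPKM in line D7, 307 in line C2 and 256 in each wild-type library. With median-of-ratios scaling the order turned, to 264 and 256 in the lines against 295 and 345 in wild type. BCH2 took 30.8% of the sum in the second wild-type library and 10% in the first, a wider gap than between the lines (15% and 16.1%).

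**Figure D1:**
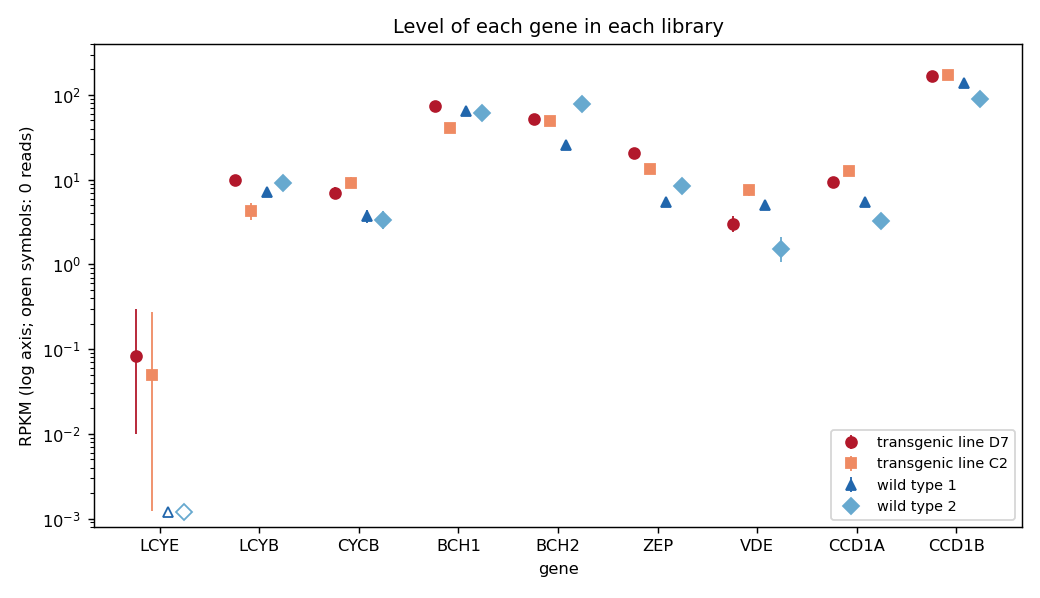
RPKM of each gene (log axis) in the 2 transgenic and 2 wild-type libraries, with exact 95% Poisson counting intervals; open symbols mark 0 reads. CCD1B lies at 90.2 to 170 RPKM, and LCYE is at or below 0.0829 RPKM in all 4 libraries.

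**Figure D2:**
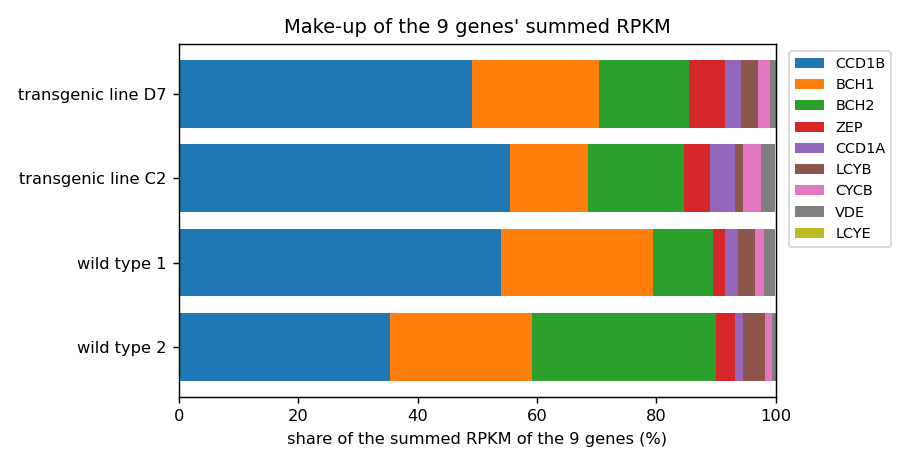
Share of each gene in the summed RPKM of the 9 genes, in percent, 1 bar per library. CCD1B takes 35.3% to 55.4%, and LCYE is too small to be seen.

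None of the 8 genes that passed the filter (a mean of at least 1 RPKM) differed between the groups at an adjusted p below 0.05. The test was limma on log2(RPKM + 1) over 16876 genes, with Benjamini-Hochberg adjustment. Of all genes tested, 18.8% were called higher and 2.09% lower in transgenic fruit, against 0 and 0 of the 8. The voom fit of the recovered reads also called 0 of them. At an unadjusted p below 0.05, 3 of the 8 were higher and 0 lower, against 34.1% and 7.35% of all genes tested. These were CCD1A, ZEP and CYCB, and the same 3 are the genes with an adjusted p below 0.1, a mark reached by 30.8% of all genes tested in the higher and 6.03% in the lower direction. The median log2 fold change of the 8 genes was 0.59, beside 0.49 for all genes tested, and 6 of the 8 were positive, beside 66.6% of all genes. The transgenic libraries both lay above both wild-type libraries for 4 of the 8 genes (CYCB, ZEP, CCD1A and CCD1B), a pattern shown by 50.7% of all genes tested. The opposite pattern was shown by 0 of the 8 and by 17.4% of all genes. With a crossed replicate block, an alternative added after seeing the data that pairs line D7 with wild-type replicate 2, ZEP and CCD1A were called higher, where 24.1% of all genes were called higher and 4.84% lower. Each of these shares lies near the background or below it.

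Among the cyclases, LCYE, the epsilon-cyclase of the lutein branch (Solyc12g008980.1, chromosome 12), was barely read in any library. It had 2 reads in line D7 (0.0829 RPKM), 1 read in line C2 (0.0489 RPKM) and 0 in both wild-type libraries. A count of 0 over both wild-type libraries allows up to 0.0549 RPKM, and the 3 transgenic reads correspond to 0.0673 RPKM over both lines. The exact 95% counting intervals, 0.01 to 0.3 RPKM in line D7 and 0.00124 to 0.272 RPKM in line C2, overlap those of the wild-type libraries, which reach from 0 to 0.109 and 0.178 RPKM. A difference was therefore not detectable at this depth. LCYE was not tested, since its mean of 0.0329 RPKM lies below the filter of 1 RPKM. Such limits and the intervals below cover counting error only; without molecular identifiers, single reads need not stand for single molecules.

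LCYB (Solyc04g040190.1, chromosome 4), the beta-cyclase known from green tissue, had 9.96 RPKM in line D7, 4.22 in line C2, and 7.24 and 9.24 in the wild-type libraries. Line D7 was the highest of the 4 and line C2 the lowest, so the wild-type values lay between the lines, which were 2.36-fold apart. The transgenic mean was 7.09 ± 4.06 RPKM and that of wild type 8.24 ± 1.41 RPKM (SD, n = 2 each). LCYB gave a log2 fold change of -0.28 (standard error 0.45, 95% interval -1.38 to 0.82, limma adjusted p = 0.66), and it turned to 0.25 without line C2. It was -0.84 both with median-of-ratios scaling and with a correction for gene length (limma adjusted p = 0.2 and 0.3).

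CYCB (Solyc06g074240.1, chromosome 6) is the chromoplast beta-cyclase, the gene of the Beta and old-gold mutants of tomato. It had 7.02 RPKM in line D7 and 9.26 in line C2, against 3.71 and 3.37 in the wild-type libraries. Both lines lay above both wild-type libraries, and the lower line was 1.89-fold above the higher wild-type value. The mean was 8.14 ± 1.58 RPKM in transgenic and 3.54 ± 0.247 RPKM in wild-type fruit (SD, n = 2 each), a ratio of 2.3. The log2 fold change of 1 (standard error 0.33, 95% interval 0.18 to 1.82) missed the threshold at an adjusted p of 0.078 in limma. It stayed positive under every alternative tried, at 0.46 (limma adjusted p = 0.3) with median-of-ratios scaling and 0.44 (limma adjusted p = 0.4) with a correction for gene length.

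Because a ratio of genes within a library does not depend on how the library was scaled, the cyclases were also compared with each other. CYCB stood at 0.705 times the level of LCYB in line D7 and 2.19 times in line C2, against 0.513 and 0.364 times in wild type. The order of the cyclases was thus CYCB above LCYB in line C2 and LCYB above CYCB in the other 3 libraries. The log2 ratio was 0.31 ± 1.16 in transgenic and -1.21 ± 0.35 in wild-type fruit (SD, n = 2 each), a difference of 1.52 without overlap (exact permutation test, two-sided, p = 0.333, the smallest that 2 against 2 allows). The difference was 0.71 without line C2 and 2.34 without line D7. LCYE stood at 0.00488 and 0.00363 times the summed level of LCYB and CYCB in lines D7 and C2 and at 0 in wild type. CYCB and LCYB are close in length, at 1497 and 1503 bases.

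For both hydroxylases the groups overlapped. BCH1 (Solyc06g036260.2, chromosome 6), also named CrtR-b1, had 73.2 RPKM in line D7, 40.4 in line C2, and 65 and 61 in the wild-type libraries. As for LCYB, line D7 was the highest and line C2 the lowest. The mean was 56.8 ± 23.2 RPKM in transgenic and 63 ± 2.84 RPKM in wild-type fruit (SD, n = 2 each). BCH1 gave a log2 fold change of -0.21 (standard error 0.36, 95% interval -1.09 to 0.68, limma adjusted p = 0.69). It turned to 0.21 without line C2, and it was -0.84 with median-of-ratios scaling and -0.59 with the gene length correction (limma adjusted p = 0.13 and 0.33).

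BCH2 (Solyc03g007960.2, chromosome 3), also named CrtR-b2, is the hydroxylase known for its role in flower petals and other chromoplast tissue. It had 51.4 RPKM in line D7 and 49.4 in line C2, against 25.6 and 78.6 in the wild-type libraries. The lines lay within 1.04-fold of each other and between the wild-type values, which were 3.07-fold apart. The exact 95% counting intervals of the wild-type libraries, 23.7 to 27.5 and 74.5 to 83 RPKM, do not meet, so that gap is larger than counting error. BCH2 gave a log2 fold change of 0.16 (standard error 0.53, 95% interval -1.14 to 1.46, limma adjusted p = 0.84), and it ranged from -0.63, with wild-type replicate 1 left out, to 0.95, with wild-type replicate 2 left out. It turned to -0.47 under median-of-ratios scaling and to -0.21 once the length trend was removed (limma adjusted p = 0.59 and 0.85). BCH2 stood at 0.702 and 1.22 times the level of BCH1 in lines D7 and C2, and at 0.394 and 1.29 times in wild type. These ratios overlapped (difference in log2 ratio 0.38, exact permutation p = 1), and the difference was -0.48 without wild-type replicate 1 and -0.02 without line C2.

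In the xanthophyll cycle, ZEP (Solyc02g090890.2, chromosome 2), whose loss gives the high-pigment hp3 tomato, had 20.6 RPKM in line D7 and 13.5 in line C2, against 5.53 and 8.46 in the wild-type libraries. Both lines lay above both wild-type libraries. The mean was 17 ± 5.06 RPKM in transgenic and 6.99 ± 2.07 RPKM in wild-type fruit (SD, n = 2 each), a ratio of 2.44. The log2 fold change of 1.17 (standard error 0.37, 95% interval 0.25 to 2.09) missed the threshold at an adjusted p of 0.071 in limma. It was 0.58 with median-of-ratios scaling and turned to -0.09 with the gene length correction (limma adjusted p = 0.29 and 0.91).

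VDE (Solyc04g050930.2, chromosome 4), the enzyme that opposes ZEP, had 3.02 RPKM in line D7 and 7.49 in line C2, against 5.07 and 1.51 in the wild-type libraries. Line C2 was the highest and wild-type replicate 2 the lowest, so the groups overlapped. The libraries differed by 2.48-fold within the transgenic group and by 3.36-fold within the wild type. The lowest value rested on 37 reads, with an exact 95% counting interval of 1.06 to 2.08 RPKM that lies below the interval of wild-type replicate 1 (4.4 to 5.82). VDE gave a log2 fold change of 0.58 (standard error 0.58, 95% interval -0.85 to 2.01, limma adjusted p = 0.48), and it ranged from -0.06, with wild-type replicate 2 left out, to 1.22, with wild-type replicate 1 left out. It was 0.1 with median-of-ratios scaling and turned to -0.28 when the length trend was removed (limma adjusted p = 0.91 and 0.79). ZEP stood at 6.82 and 1.79 times the level of VDE in lines D7 and C2, and at 1.09 and 5.6 times in wild type, without a common order of the groups. The log2 ratio differed by 0.5 (exact permutation p = 0.667), by -0.46 without line D7 and by -0.68 without wild-type replicate 1. ZEP is the longer gene (2527 against 1870 bases), and on the log2(RPKM + 1) scale the difference was 0.59 without and 0.19 with the gene length correction.

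The cleavage genes CCD1A (Solyc01g087250.2) and CCD1B (Solyc01g087260.2) lie side by side on chromosome 1, with 0 other genes starting between them in the RefSeq table. The treatment of reads that match both is not given in the sources used here, so their separate values are uncertain to that extent. CCD1A had 9.44 RPKM in line D7 and 12.6 in line C2, against 5.43 and 3.29 in the wild-type libraries. Both lines lay above both wild-type libraries, the lower line by 1.74-fold over the higher wild-type value. The mean was 11 ± 2.25 RPKM in transgenic and 4.36 ± 1.51 RPKM in wild-type fruit (SD, n = 2 each), a ratio of 2.53, the highest of the 8 genes tested. The log2 fold change of 1.18 (standard error 0.37, 95% interval 0.28 to 2.09) missed the threshold at an adjusted p of 0.067 in limma, and it was 0.63 with median-of-ratios scaling and 0.17 with the gene length correction (limma adjusted p = 0.21 and 0.76).

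CCD1B had 168 RPKM in line D7 and 170 in line C2, against 138 and 90.2 in the wild-type libraries. The lines were nearly equal, and the lower of them lay 1.22-fold above the higher wild-type library. CCD1B ranked above 96% of the genes with any read in line D7 and above 91.5% of them in wild-type replicate 2. The log2 fold change of 0.6 (standard error 0.31, 95% interval -0.17 to 1.36, limma adjusted p = 0.2) turned to -0.04 under median-of-ratios scaling and to -0.55 once the length trend was removed (limma adjusted p = 0.92 and 0.25). It ranged from 0.29, with wild-type replicate 2 left out, to 0.9, with wild-type replicate 1 left out. CCD1B stood at 17.8 and 13.5 times the level of CCD1A in lines D7 and C2, against 25.4 and 27.4 times in wild type. The log2 ratio was 3.95 ± 0.29 in transgenic and 4.72 ± 0.08 in wild-type fruit (SD, n = 2 each), a difference of -0.77 without overlap (exact permutation test, two-sided, p = 0.333, the smallest possible). It lay between -0.97 and -0.57 when each library was left out in turn. CCD1A had 89 to 337 reads per library and CCD1B 2699 to 6751, and the part of reads that match both genes was not tested.

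**Figure D3:**
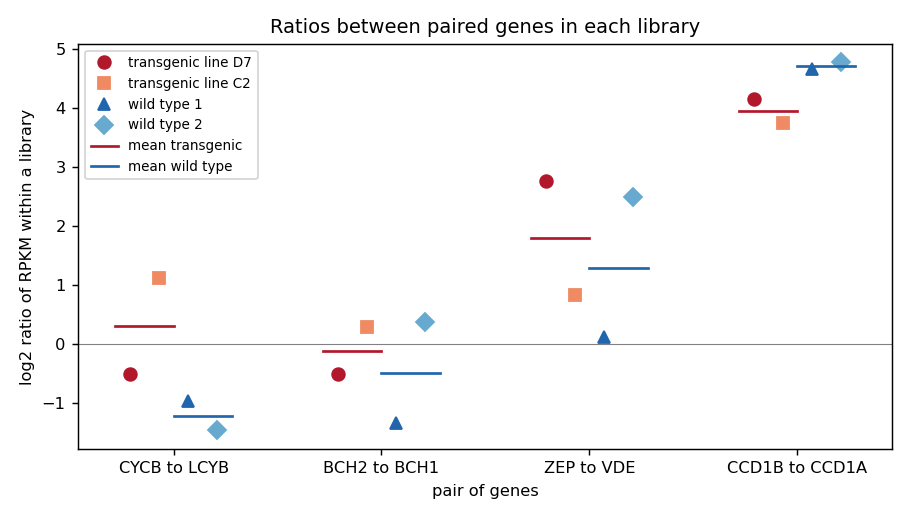
Log2 ratio of the RPKM of paired genes within each library, with short lines at the group means. For CYCB to LCYB and for CCD1B to CCD1A the transgenic and wild-type libraries do not overlap; for BCH2 to BCH1 and for ZEP to VDE they do.

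Gene length moved with the differences between the groups. Over all genes tested, the median log2 fold change was 0.32 in the length bin around 1292 bases and 1.23 in the bin around 2397 bases. The 8 genes are 1297 to 2527 bases long, against a median of 1241 bases for all genes tested. Among the 1134 other genes within 10% of the length of ZEP (2527 bases), the median log2 fold change was 1.27, above the 1.17 of ZEP. For CCD1A (2066 bases) the same median was 1.03 and for CCD1B (2285 bases) 1.19, beside their own 1.18 and 0.6. For CYCB it was 0.56, beside 1, and for LCYB 0.57, beside -0.28. In all, 6 of the 8 genes lay below the median of genes of like length and 2, CYCB and CCD1A, above it. CYCB lay above 72.1% of the genes of like length and LCYB above 12.8% of them. With the length trend removed, the median log2 fold change of the 8 genes was -0.25 beside -0.03 for all genes tested. With median-of-ratios scaling, which took the median of all genes from 0.49 to -0.05, it was 0.03. In the first setting 0.107% of all genes were called higher and 0% lower, in the second 2.95% and 5.49%, and in both 0 of the 8 were called.

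**Figure D4:**
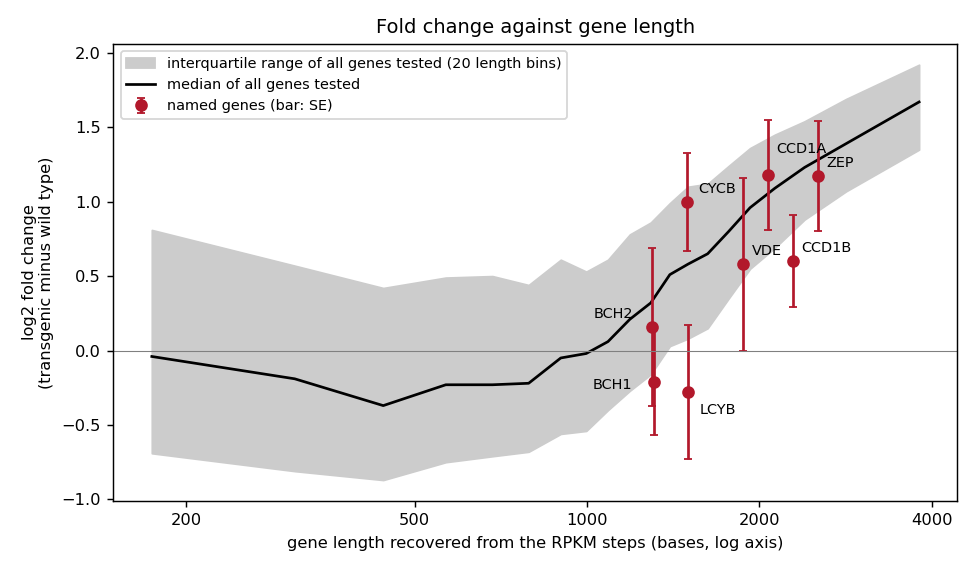
Log2 fold change (transgenic minus wild type) of the 8 genes tested, with standard errors, against recovered gene length in bases on a log axis; the line and band are the median and interquartile range of all genes tested in 20 length bins. ZEP (1.17) and CCD1A (1.18) lie close to the line, CYCB (1) lies above it, and LCYB (-0.28), BCH1 (-0.21) and CCD1B (0.6) lie below it.

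**Figure D5:**
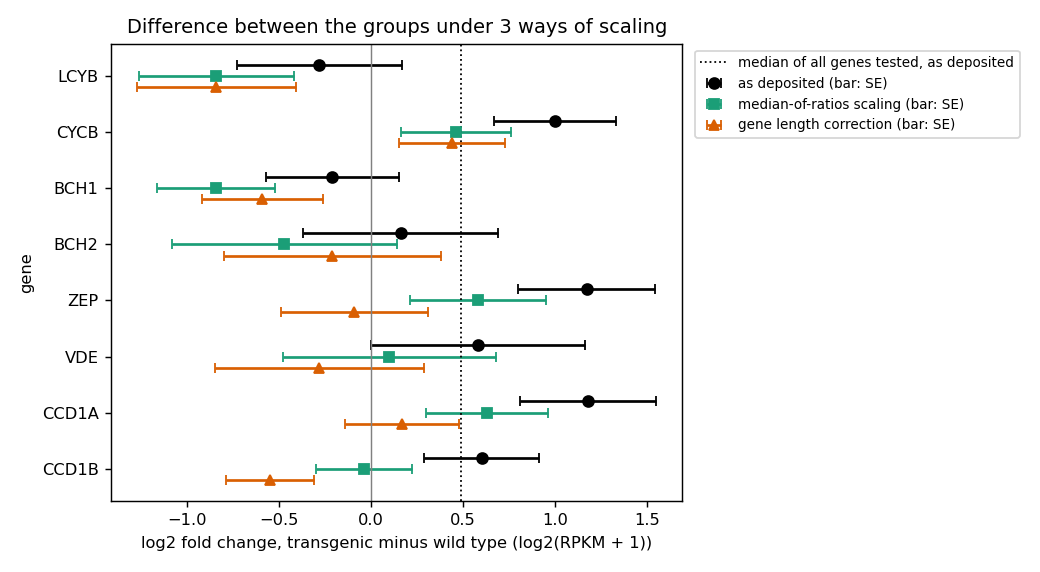
Log2 fold change of log2(RPKM + 1) for the 8 genes tested, as deposited, with median-of-ratios scaling and with the gene length correction; bars are standard errors and the dotted line is the median of all genes tested (0.49). CYCB and CCD1A are above 0 in all 3, LCYB and BCH1 below 0 in all 3, and ZEP, VDE, BCH2 and CCD1B change sign.

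The profiles over the 4 libraries were compared by the Euclidean distance between log2(RPKM + 1) values centred on each gene's mean. This is a description over 4 libraries, with no test. The values are as deposited, so the distances also carry the shift between libraries and the length trend. The median-of-ratios factors were 1.3 and 1.2 in lines D7 and C2, against 0.866 and 0.741 in the wild-type libraries. CYCB and CCD1A were nearest to each other (distance 0.38), both with their highest value in line C2 and their lowest in wild-type replicate 2. LCYB and BCH1 were closer still (distance 0.34), both highest in line D7 and lowest in line C2. The nearest gene to ZEP was CYCB (distance 0.82) and the nearest to VDE was CCD1B (distance 0.89). The nearest to BCH2 was LCYE (distance 1.12), whose 0 to 2 reads per library leave a nearly flat profile. VDE and BCH2 were the farthest apart (distance 2.21): BCH2 was highest, and VDE lowest, in wild-type replicate 2.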

How the data were processed

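RNA of 4 fruit libraries was prepared with oligo(dT) beads, fragmentation and random hexamers, per the labels' protocols, which name no step that keeps the strand. The authors deposited RPKM values, 1 column per library. Per the submitters' processing notes, HTSeq is among the tools, with no version or role stated. The sources used here do not name the aligner, build, annotation or treatment of reads with several matches. Columns were matched to samples by line or replicate in their names, and groups come from the sample descriptions.

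Reads, gene lengths and library totals were solved from the RPKM steps (tolerance 0.001 reads). They were found for 24420 of 24422 genes above 0 (99.99%), against 8.2% of 3000 genes with wrong totals. A gene of 1 kilobase with 3 reads has 0.14 to 0.232 RPKM. The lengths of LCYE, LCYB, CYCB and BCH1 are multiples of 3, as coding lengths are, and those of BCH2, ZEP, VDE, CCD1A and CCD1B are not. Which part of a transcript each length covers was not tested. The recovery and the fit were tested on simulated data. The simulation of the fit gave every gene the same spread and held no length trend or shift between libraries. It therefore cannot show how the fit behaves under those.

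Transgenic and wild-type libraries were compared in limma 3.58.1 (R 4.3.3, trended eBayes) on log2(RPKM + 1), which understates changes of low genes, for genes averaging 1 RPKM or more, with a Benjamini-Hochberg threshold of 0.05. Ratios were compared with exact permutation tests in scipy 1.17.1. Alternatives were pseudocounts of 0.1 and 5, no filter, median-of-ratios scaling, a loess correction for gene length (span 0.3), voom, the replicate number as a block, a crossed block added after seeing the data, and leaving out each library. The filter was always applied to the deposited values of all 4 libraries.

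Every gene of the list is named. Names come from the list. RefSeq (assembly SLM_r2.1) holds an entry of that name or synonym for 9 of 9, on the chromosome in the Solyc ID for 9 of 9. CYCB is listed there as NSY with the synonym Cyc-B. No Solyc ID appears in that table, so other carotenoid genes and fruit markers were not analysed here. Genes, list and tests were chosen with earlier results of these data known.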

Additional observations from a re-analysis of the deposited data

How the results depend on the processing

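The count of 0 genes called higher became 2 (ZEP, limma adjusted p = 0.041, and CCD1A, 0.045) with the crossed replicate block, which pairs line D7 with wild-type replicate 2. It stayed 0 in the other 11 settings, and the count called lower stayed 0 in all 12. The median log2 fold change of the 8 genes, 0.59, was 0.03 with median-of-ratios scaling, -0.25 with the gene length correction, and 0.42 to 0.9 without each library in turn, 0.9 being without wild-type replicate 1. Signs turned with median-of-ratios scaling for BCH2 (-0.47) and CCD1B (-0.04), and with the gene length correction for BCH2 (-0.21), ZEP (-0.09), VDE (-0.28) and CCD1B (-0.55). Leaving out each library gave -0.81 to 0.25 for LCYB, -0.63 to 0.21 for BCH1, -0.63 to 0.95 for BCH2 and -0.06 to 1.22 for VDE. The differences in log2 ratio ranged over these fits from 0.71 to 2.34 for CYCB to LCYB, -0.48 to 1.24 for BCH2 to BCH1, -0.68 to 1.68 for ZEP to VDE and -0.97 to -0.57 for CCD1B to CCD1A. The cause of these shifts was not tested. Where 1 library was left in a group, the spread of the remaining group stood in for its own. The labels do not say whether equal replicate numbers mark a shared day or batch. Libraries of equal number deviated from their group means with a correlation of -0.16 over genes. The replicate block gave 0 called genes of the 8. Its median log2 fold change of 0.59 and its log2 ratio differences equal those of the main fit by design. Each group holds 1 library of each number, so neither block can move a fold change, and only p-values can shift. With the replicate block the limma adjusted p rose from 0.078 to 0.15 for CYCB, from 0.071 to 0.13 for ZEP and from 0.067 to 0.12 for CCD1A. With the gene length correction and a pseudocount of 1, added after seeing the data, the log2 ratio differences kept their directions. With that pseudocount, CYCB to LCYB gave 1.28 both without and with the correction. CCD1B to CCD1A gave -0.59 without and -0.72 with it, BCH2 to BCH1 0.37 and 0.38, and ZEP to VDE 0.59 and 0.19. LCYE was below the filter, and with 0 reads in wild type its log2 ratio to the other cyclases could not be formed there.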
